A study of Mus musculus with 16 samples.

Results

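The transcripts described here are those of 10 genes of the circadian clock, Arntl (also written Bmal1), Clock, Per1, Per2, Per3, Cry1, Nr1d1, Nr1d2, Dbp and Tef. They were taken as a list of symbols and matched to the Ensembl identifiers of the counts table, which held 55573 genes. All 10 were found, and all 10 were among the 20822 genes with enough counts to be tested.

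RNA was sequenced from whole epididymal white adipose tissue (eWAT), the visceral fat depot next to the testis, of 16 male mice of the C57BLKS/J-db/db genotype. These mice are homozygous for a leptin receptor mutation and become obese and diabetic on chow. Every mouse had received an adeno-associated virus of serotype 8 at 4 weeks of age through the retro-orbital route. The groups, of 4 mice each, were AAV8-LRG1-FL (called LRG1) at 7 weeks of age, AAV8-eGFP (called eGFP) at 7 weeks, LRG1 at 10 weeks and eGFP at 10 weeks. LRG1, a secreted leucine-rich glycoprotein, carried a 3xFLAG tag at its C-terminus in the vector, and both vectors used the CB7 promoter, which is not restricted to a cell type. Animals were group-housed in a daily light and dark cycle except during metabolic studies. These included fasts and, shortly before 7 weeks of age, calorimetry in single housing. The paper reports that LRG1 db/db mice ate more than eGFP mice and moved less, above all in the dark phase. Whether the mice sequenced here took part in those studies is not given. The vector was assigned at random to whole cages of 4 mice, as many as each group holds here. Which cage and cohort each sequenced mouse came from, and the hour at which the tissue was taken, are not given in the sources used here. A difference in harvest hour, cage, cohort or housing before harvest between groups therefore cannot be told apart from a difference made by the vector or the age. The tests between groups below set each difference against the spread between mice within groups, and take no account of such differences.

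In mammalian cells the clock is a loop of transcription and repression. ARNTL and CLOCK proteins pair and switch on genes that carry an E-box, the PER and CRY proteins accumulate and shut this pair off, and the nuclear receptors NR1D1 and NR1D2 (REV-ERB alpha and beta) repress Arntl in a second loop. Dbp and Tef encode activators with a PAR bZIP domain that bind D-boxes and carry the rhythm to output genes. In mouse fat, as in liver, Arntl transcripts peak at a time of day opposite to those of Dbp, Nr1d1 and Per3, so their levels depend on the hour of sampling.

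Promoter windows of the RefSeq annotation of GRCm38.p6, from 250 bases before to 50 bases after each transcription start, were searched on both strands because these elements define the roles named above. Windows were at hand for 9 of the 10 genes, all but Per2 (14 windows), with 3 for Clock and 2 each for Arntl, Per1 and Tef. The shares of all windows given below are of single windows, whereas a gene was counted if any of its windows held the element. Clock, Dbp and Nr1d2 held none of the elements below. An E-box, spelled CACGTG, lay in windows of 3 genes (Per1, Cry1 and Tef), and 7.15% of 32851 windows of the same length in the genome held one. The related element CACGTT lay in those of 2 genes (Cry1 and Nr1d1), against 4.68% of all windows. A D-box, spelled TTATGTAA or TTACGTAA, occurred at 2 places in the window of Per3, against 1.06% of all windows, and a RORE, the element that NR1D1 and NR1D2 bind, occurred in a window of Arntl, against 0.384%. The elements CACGTG and CACGTT share their first 5 letters but are never the same site, the D-box and the RORE share no site with them in these windows, and a match is a match of letters only. The stretches around the E-boxes, D-boxes and RORE are given 5′ to 3′ with the element in capitals, and those around CACGTT are not shown. Each distance is from the start of the window that held the element. For Per1 this is a start inside the Ensembl gene, which begins at 69095217.
Arntl, chr7:113207528-113207556, plus strand, RORE 27 bases after the start: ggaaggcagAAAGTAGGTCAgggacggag
Per1, chr11:69098771-69098800, plus strand, E-box 166 bases before the start: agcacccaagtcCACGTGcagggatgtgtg
Per3, chr4:151044804-151044882, minus strand, first D-box 205 bases before the start: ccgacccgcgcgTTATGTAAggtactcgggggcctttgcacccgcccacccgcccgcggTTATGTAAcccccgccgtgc
Cry1, chr10:85185097-85185126, minus strand, E-box 60 bases before the start: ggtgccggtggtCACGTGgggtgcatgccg
Tef, chr15:81802534-81802563, plus strand, E-box 127 bases before the first start: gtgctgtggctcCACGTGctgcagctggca
Tef, chr15:81811264-81811293, plus strand, E-box 138 bases before the second start: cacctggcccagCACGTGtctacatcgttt

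The libraries held 45376227 to 67539937 counts each, and levels are given in CPM, counts normalized to the effective library size from TMM. Lrg1, the gene carried by the vector, was at 288 to 478 CPM in LRG1 mice against 86.2 to 110.2 CPM in eGFP mice at week 7, and at 286 to 624 CPM against 99.6 to 115 CPM at week 10, so that every library fitted its vector label. Its levels overlapped between the weeks, so they do not check the age labels. Markers of fat were high in every library: the summed level of 10 adipocyte markers ran from 8073 to 19920 CPM, whereas 7 epididymis genes summed to at most 1.66 CPM. The 4 eGFP mice of week 10 stood apart from one another. Their summed level of 12 macrophage markers was 10342, 3411, 11010 and 4653 CPM in replicates 1 to 4, and their adipocyte sum was 8073, 17217, 9807 and 16767 CPM.

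The 10 clock genes differed widely in level and in how much they varied among mice of a group. Per kilobase of the gene length in the table, Clock had the highest mean level over the 16 libraries (15.9 CPM per kb), followed by Nr1d2 (12.04), Nr1d1 (10.5), Tef (10.4) and Per1 (8.44 CPM per kb). Per2 had 5.13, Dbp 3.09, Cry1 2.89, Per3 2.15 and Arntl, the partner of Clock, 1.74 CPM per kb. The smallest count of any of the 10 genes in any library was 227, for Dbp. The standard deviation of log2 CPM within groups was largest for Nr1d1 (0.43) and Dbp (0.41), above 90.4% and 88.8% of the 14176 genes at a mean of 1 CPM or more. It was 0.34 for Per3, 0.28 for Tef and Arntl, and 0.24 for Per2, against a median of 0.18 over all those genes. Clock (0.089) and Nr1d2 (0.11) were among the less variable genes, at percentiles 10.9 and 23.2.

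**Figure D1:**
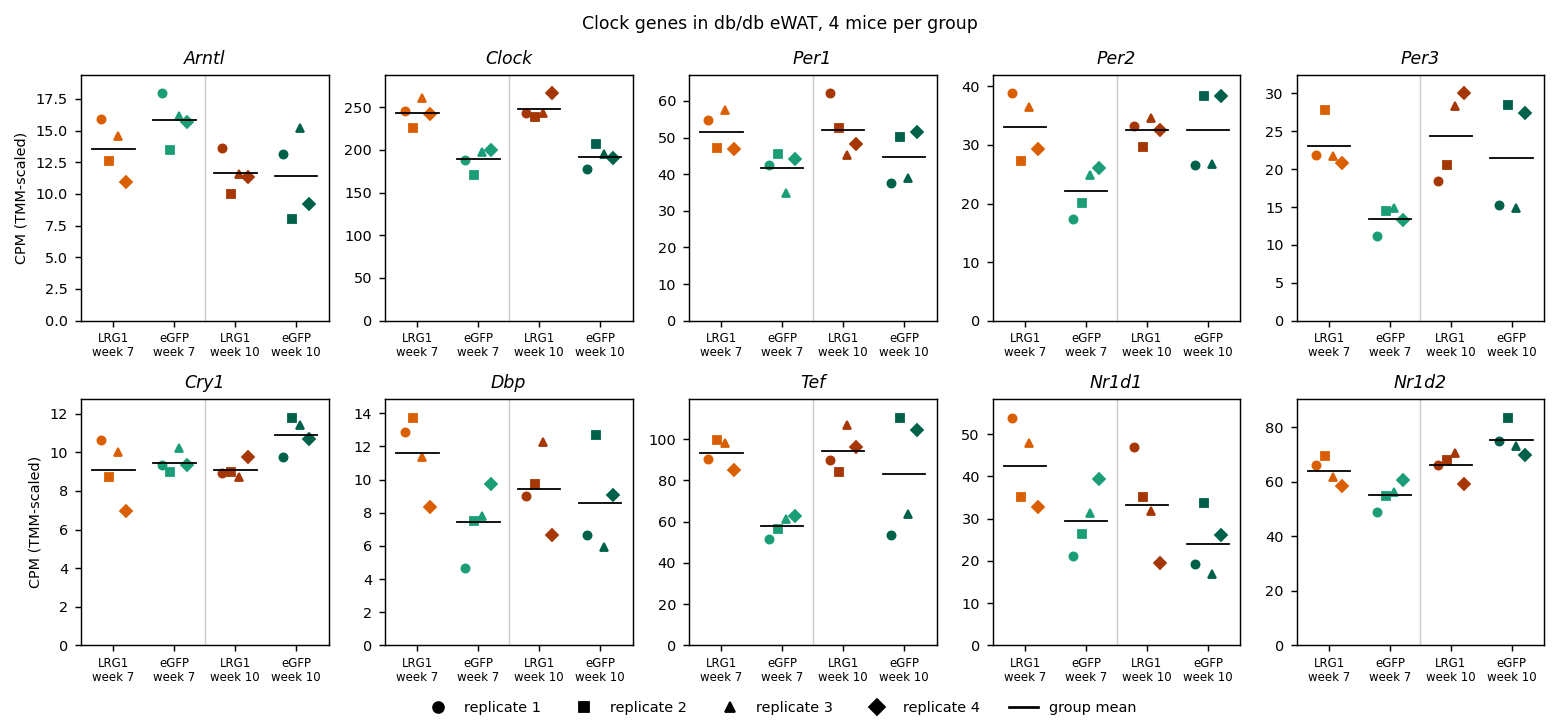
Level of each of the 10 clock genes in every mouse, in TMM-scaled CPM on a linear axis from 0, for LRG1 and eGFP mice at week 7 (left of the grey line) and week 10 (right); point shapes are replicates 1 to 4 and bars are group means (n = 4 mice). Clock is higher in all LRG1 mice than in all eGFP mice at both weeks, whereas Tef, Per3 and Per2 in the eGFP mice of week 10 span from 53.6 to 110.4, from 14.8 to 28.5 and from 26.6 to 38.3 CPM.

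At week 7, Clock, Per2 and Tef transcripts were higher in eWAT of LRG1 mice than of eGFP mice, by 29.0%, 49.3% and 60.6%, and no clock gene passed the test as lower. These 3 of 10 genes passed an adjusted p below 0.01 in edgeR's quasi-likelihood test, where 7.37% of all 20822 genes passed as higher and 10.7% as lower. Per1 and Per3 did not pass, but like Clock, Per2 and Tef they were higher in every LRG1 mouse than in any eGFP mouse. Such separation upwards was seen for 5 of the 10 genes and for 18.6% of all genes. The median log2 fold change of the 10 genes was 0.44, with 8 above 0, beside 0.01 for all genes tested. Whole tissue was sequenced. A changed share of cells that express a gene and a changed level of RNA per cell therefore cannot be told apart here.

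Of the activator pair, Clock (ENSMUSG00000029238, chromosome 5 from 76209868 to 76304792 of GRCm38, minus strand) was at 246, 226, 261 and 242 CPM in LRG1 mice, against 188, 170.4, 198 and 199.7 CPM in eGFP mice. The lowest LRG1 mouse lay above the highest eGFP mouse, and the log2 fold change was 0.37 (SE 0.07, adjusted p = 0.00178, edgeR). Arntl (ENSMUSG00000055116, chromosome 7 from 113207465 to 113314126, plus strand) was at 15.9, 12.6, 14.6 and 10.9 CPM in LRG1 mice, against 17.98, 13.5, 16.2 and 15.7 CPM in eGFP mice. These ranges overlapped and the log2 fold change of -0.23 (SE 0.18, adjusted p = 0.348) did not pass.

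Among the repressors, Per2 (ENSMUSG00000055866, chromosome 1 from 91415982 to 91459324 of GRCm38, minus strand) was at 38.9, 27.3, 36.4 and 29.3 CPM in LRG1 mice, against 17.4, 20.1, 24.9 and 26.0 CPM in eGFP mice. The gap between the groups was narrow, and the log2 fold change of 0.58 (SE 0.15) passed just under the threshold (adjusted p = 0.00997, edgeR). Per3 (ENSMUSG00000028957, chromosome 4 from 151003652 to 151044665, minus strand) was at 21.9, 27.8, 21.7 and 20.8 CPM in LRG1 mice, against 11.2, 14.5, 14.9 and 13.3 CPM in eGFP mice. The groups were clear of each other, and the log2 fold change of 0.78 (SE 0.21), the largest of the 10, lay just outside the threshold (adjusted p = 0.0111). Per1 (ENSMUSG00000020893, chromosome 11 from 69095217 to 69109960, plus strand) was at 46.8 to 57.5 CPM in LRG1 mice against 34.8 to 45.6 CPM in eGFP mice, with a log2 fold change of 0.30 (SE 0.13, adjusted p = 0.0797). Cry1 (ENSMUSG00000020038, chromosome 10 from 85131700 to 85185064, minus strand), which acts with the PER proteins, had overlapping ranges of 6.96 to 10.6 and 8.99 to 10.2 CPM in LRG1 and eGFP mice and a log2 fold change of -0.06 (SE 0.11, adjusted p = 0.722).

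Of the nuclear receptors, Nr1d1 (ENSMUSG00000020889, chromosome 11 from 98767932 to 98775333 of GRCm38, minus strand) was at 53.9, 35.1, 47.9 and 32.7 CPM in LRG1 mice, against 21.1, 26.4, 31.4 and 39.3 CPM in eGFP mice. The mice of each group were spread so widely that the log2 fold change of 0.52 came with an SE of 0.27 (adjusted p = 0.147). Nr1d2 (ENSMUSG00000021775, chromosome 14 from 18204054 to 18239127, minus strand) was at 58.4 to 69.6 CPM in LRG1 mice against 48.8 to 60.6 CPM in eGFP mice, a log2 fold change of 0.21 (SE 0.08, adjusted p = 0.0608). Exons of Nr1d1 share 263 of 3077 bases (8.55%) with Thra on the opposite strand, and whether the counting used strand is not stated.

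Of the PAR bZIP outputs, Tef (ENSMUSG00000022389, chromosome 15 from 81802421 to 81826863 of GRCm38, plus strand) was at 90.6, 99.5, 98.1 and 85.0 CPM in LRG1 mice, against 51.7, 56.6, 61.3 and 62.8 CPM in eGFP mice. The groups were far apart and the log2 fold change was 0.68 (SE 0.18, adjusted p = 0.00834, edgeR). Dbp (ENSMUSG00000059824, chromosome 7 from 45705088 to 45710203, plus strand) was at 12.9, 13.7, 11.4 and 8.32 CPM in LRG1 mice, against 4.65, 7.51, 7.78 and 9.71 CPM in eGFP mice. Only the lowest LRG1 mouse and the highest eGFP mouse overlapped, but the log2 fold change of 0.64 (SE 0.26, adjusted p = 0.0657) did not pass. Dbp shares 539 of its 2993 exon bases (18.01%) with Sphk2 on the opposite strand, which was at 20.3 CPM on average.

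The calls of Per2 and Tef at week 7 lay near the threshold. Tef no longer passed whichever of the 8 libraries was left out, although its log2 fold change stayed at 0.63 to 0.73 (adjusted p 0.014 to 0.0306), whereas it passed in a fit of only the 8 libraries of week 7 (adjusted p = 2.61e-05, edgeR). Per2 did not pass without eGFP replicate 1, 2 or 3 or without LRG1 replicate 1, 3 or 4 (0.48 to 0.63, adjusted p 0.0134 to 0.0387), whereas Clock passed each time (0.32 to 0.40, adjusted p 0.00217 to 0.00871). With the total count of the library as the only scaling, the median log2 fold change of all genes moved to -0.15 and none of the 3 passed, with Clock at 0.21, Per2 at 0.42 and Tef at 0.52. The mix of cells also moved with the groups at week 7. The macrophage markers summed to 2254 to 2603 CPM in LRG1 mice against 5234 to 6915 CPM in eGFP mice, with 10 of 12 called lower, and none of the 12 was at 0. The adipocyte markers summed to 15871 to 19817 CPM against 11886 to 12641 CPM, with 2 of 10 called higher (Cidec and Slc2a4). The 8 T cell markers, all called lower, summed to 4.34 to 14.2 CPM in LRG1 mice against 37.6 to 76.3 CPM in eGFP mice, and the 7 endothelial markers, 5 called higher, to 476 to 644 CPM against 270 to 351 CPM. Their part in the clock gene levels was not tested.

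At week 10, Clock was again higher in LRG1 mice, by 29.0%, and it was the only clock gene to pass the test. No other clock gene separated the groups. Across all genes 3.66% passed as higher and 5.24% as lower, and 9.96% separated upwards. The median log2 fold change of the 10 genes was 0.15, with 7 above 0, beside -0.00 for all genes tested.

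Clock was at 243, 238, 244 and 267 CPM in LRG1 mice, against 178, 206, 195 and 190.4 CPM in eGFP mice at week 10. As at week 7 the lowest LRG1 mouse exceeded the highest eGFP mouse, and the log2 fold change was 0.37 (SE 0.07, adjusted p = 0.00383, edgeR). Arntl was at 13.6, 9.99, 11.6 and 11.4 CPM in LRG1 mice, against 13.2, 8.06, 15.2 and 9.17 CPM in eGFP mice. The LRG1 mice lay inside the range of the eGFP mice, and the log2 fold change was 0.03 (SE 0.18, adjusted p = 0.916). Clock did not pass at week 10 without eGFP replicate 1 or 3 or without LRG1 replicate 1, 3 or 4 (0.33 to 0.39, adjusted p 0.0102 to 0.0171), nor when only the 8 libraries of week 10 were fitted (0.38, adjusted p = 0.0406) or with the library total as the only scaling (0.36, adjusted p = 0.0165).

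Tef was at 89.8, 83.8, 107 and 96.2 CPM in LRG1 mice, against 53.6, 110.4, 63.8 and 104 CPM in eGFP mice at week 10. Replicates 2 and 4 of the eGFP group were as high as the LRG1 mice and replicates 1 and 3 were near the eGFP mice of week 7. Per3 showed the same arrangement, with 18.5, 20.6, 28.3 and 30.1 CPM in LRG1 mice, against 15.3, 28.5, 14.8 and 27.5 CPM in eGFP mice. Per2 was at 33.2, 29.7, 34.6 and 32.5 CPM in LRG1 mice, against 26.6, 38.3, 26.8 and 38.3 CPM in eGFP mice. The eGFP replicates 2 and 4, high for these 3 genes, were the lower pair for Arntl, at 8.06 and 9.17 CPM, and had 3411 and 4653 CPM of macrophage markers against 10342 and 11010 CPM in replicates 1 and 3. The log2 fold changes were 0.18 (SE 0.18) for Tef, 0.18 (SE 0.21) for Per3 and -0.00 (SE 0.15) for Per2, with adjusted p from 0.49 to 0.999 in edgeR.

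**Figure D2:**
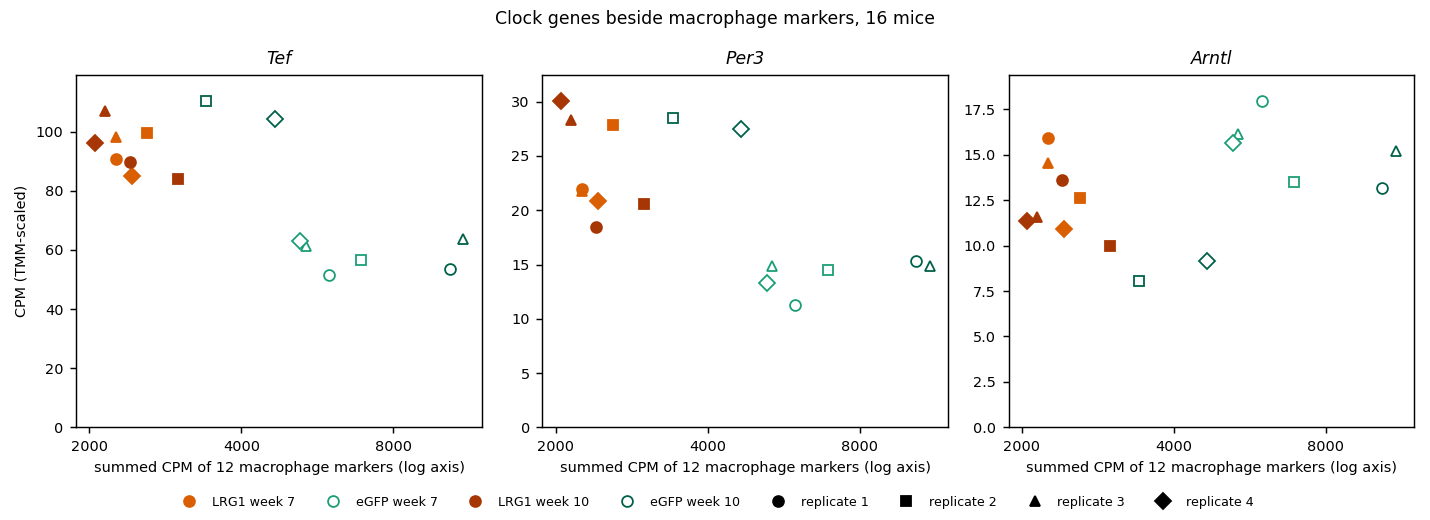
Level of Tef, Per3 and Arntl in each of the 16 mice (TMM-scaled CPM, linear axis from 0) against the summed CPM of 12 macrophage markers in the same library (log axis); filled points are LRG1 mice and open points eGFP mice, and shapes are replicates 1 to 4. In the eGFP group of week 10, replicates 2 and 4 (3411 and 4653 CPM of markers) had 110.4 and 104 CPM of Tef, and replicates 1 and 3 (10342 and 11010 CPM) had 53.6 and 63.8 CPM.

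The other 5 clock genes also overlapped between the groups at week 10. Nr1d1 was at 46.9, 35.1, 31.9 and 19.4 CPM in LRG1 mice, against 19.2, 33.6, 16.9 and 26.2 CPM in eGFP mice, a log2 fold change of 0.47 (SE 0.27, adjusted p = 0.213). Cry1, with -0.26 (SE 0.11, adjusted p = 0.0991), and Nr1d2, with -0.19 (SE 0.08, adjusted p = 0.106), had the most negative values. Cry1 was at 8.74 to 9.75 CPM in LRG1 mice against 9.74 to 11.8 CPM in eGFP mice, and Nr1d2 at 59.3 to 70.6 CPM against 70.0 to 83.6 CPM, so that each pair of ranges met only at its edge. Per1 (0.22, SE 0.13) and Dbp (0.13, SE 0.26) had adjusted p of 0.217 and 0.756. Macrophage markers at week 10 summed to 2050 to 2995 CPM in LRG1 mice against 3411 to 11010 CPM in eGFP mice, with 11 of 12 called lower and none at 0, and the part of these cells in the clock gene levels was not tested.

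**Figure D3:**
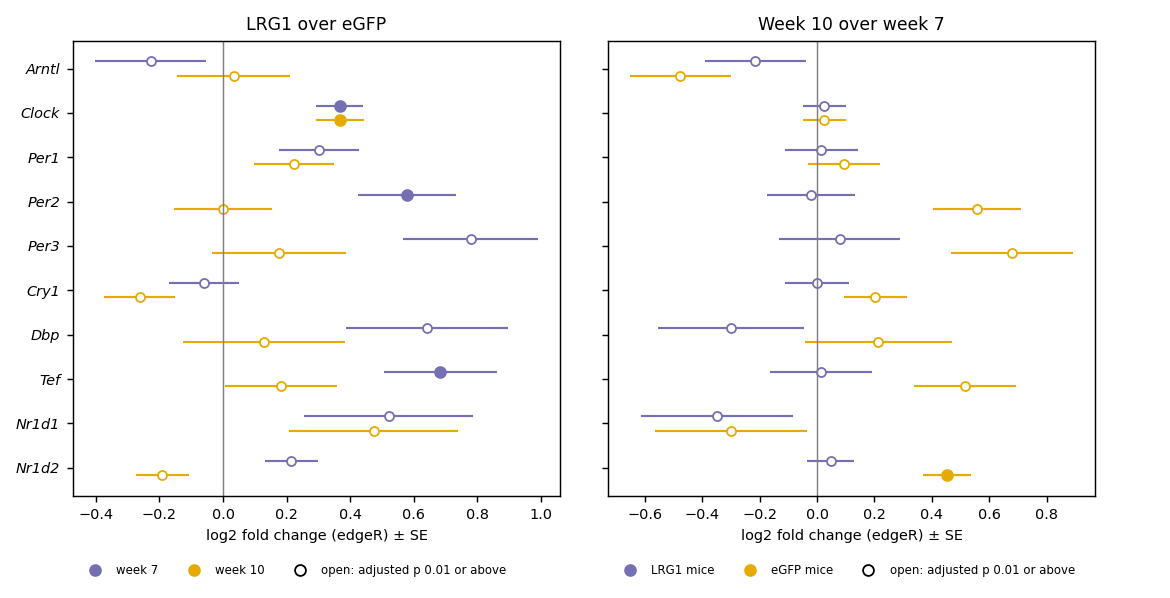
Log2 fold change of each clock gene from edgeR with its standard error (bars), for LRG1 over eGFP at weeks 7 and 10 (left) and for week 10 over week 7 in LRG1 and eGFP mice (right); filled points passed an adjusted p below 0.01. Filled are Clock, Per2 and Tef at week 7, Clock at week 10, and Nr1d2 between weeks in eGFP mice.

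Whether the effect of LRG1 differed between the weeks was tested directly, and 0 of 10 clock genes passed, where 0.327% of all genes passed and 9.38% were at an unadjusted p below 0.05. The 2 clock genes at an unadjusted p below 0.05 were Nr1d2 (difference of the log2 fold changes -0.41, SE 0.12, unadjusted p = 0.00333, adjusted p = 0.143) and Per2 (-0.58, SE 0.22, unadjusted p = 0.0174, adjusted p = 0.342), and neither DESeq2 nor limma-voom called any of the 10. For Clock the difference was 0.00 (SE 0.10). Per3 (-0.60, SE 0.30), Dbp (-0.51, SE 0.36) and Tef (-0.50, SE 0.25) had differences of like size with wide errors. A difference between the weeks was therefore not shown for Per2 or Tef, although both were called at week 7 alone.

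Between the weeks, the eGFP mice held more Nr1d2 transcript at week 10 than at week 7, by 36.9%, and it was the 1 clock gene of 10 called, where 0.629% of all genes passed as higher and 1.51% as lower. Nr1d2 was at 75.0, 83.6, 73.1 and 70.0 CPM at week 10, against 48.8, 54.9, 56.2 and 60.6 CPM at week 7. Every mouse of week 10 was above every mouse of week 7, and the log2 fold change was 0.45 (SE 0.08, adjusted p = 0.00444, edgeR). Per2 separated as well, at 26.6 to 38.3 CPM against 17.4 to 26.0 CPM, with a log2 fold change of 0.56 (SE 0.15, adjusted p = 0.0443) that did not pass, and 4.08% of all genes separated upwards. Per3 (0.68, SE 0.21, adjusted p = 0.0717), Tef (0.52, SE 0.18, adjusted p = 0.105) and Arntl (-0.48, SE 0.18, adjusted p = 0.134) overlapped between the weeks. Nr1d2 did not pass without eGFP replicate 1, 2 or 3 of week 7 or replicate 2 of week 10 (0.40 to 0.46, adjusted p 0.0105 to 0.021), nor in a fit of the 8 eGFP libraries alone (0.48, adjusted p = 0.0285) or with the library total as the only scaling (0.35, adjusted p = 0.0635). In that comparison the 4 libraries of week 10 are those with the uneven macrophage markers given above, and their part in the values was not tested.

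In LRG1 mice none of the 10 clock genes passed between week 10 and week 7, where 0.00961% of all genes passed in edgeR and 8.39% were at an unadjusted p below 0.05. No clock gene was at an unadjusted p below 0.05, and DESeq2 and limma-voom called none. The log2 fold changes ran from -0.35 for Nr1d1 (SE 0.26) and -0.30 for Dbp (SE 0.25) to 0.08 for Per3 (SE 0.21). Nr1d2, at 59.3 to 70.6 CPM at week 10 against 58.4 to 69.6 CPM at week 7, had a log2 fold change of 0.05 (SE 0.08), and Clock one of 0.03 (SE 0.07). The eGFP mice serve as the comparison in both LRG1 contrasts and as the later and earlier groups in the week contrast, so these comparisons share libraries and are not independent of each other. By group mean, Clock was at 248 ± 12.8 and 244 ± 14.7 CPM in LRG1 mice of weeks 10 and 7, and at 192 ± 11.9 and 189 ± 13.3 CPM in eGFP mice of weeks 10 and 7 (SD, n = 4 each). Tef averaged 94.2 ± 9.88 and 93.3 ± 6.79 CPM in LRG1 mice of weeks 10 and 7 and 83.0 ± 28.5 CPM in eGFP mice of week 10, which were not apart beyond their spread, and was lowest in eGFP mice of week 7, at 58.1 ± 5.04 CPM. Per3 and Per2 were likewise lowest in eGFP mice of week 7. The other 3 groups averaged 21.5 to 24.4 CPM of Per3 and 32.5 to 33.0 CPM of Per2, against 13.5 ± 1.62 and 22.1 ± 4.08 CPM in eGFP mice of week 7.

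Other genes of the clock loop were read in the same way at week 7. Of 18, 17 were tested (Rorb was not), with a median log2 fold change of 0.19. Of these, 2 were called higher, 1 lower and 14 did not pass, where 7.37% of all genes were called higher and 10.7% lower. All LRG1 mice lay above all eGFP mice for 7 of the 17 genes, against 18.6% of all genes. They lay below them for 3, a count that is not read further because the share of all genes separating downwards is not given here. Hlf, the third PAR bZIP factor beside Dbp and Tef, was at 10.4, 12.3, 13.5 and 9.42 CPM in LRG1 mice, against 3.96, 5.78, 4.70 and 5.49 CPM in eGFP mice. All LRG1 mice were above all eGFP mice, and the log2 fold change of 1.19 (SE 0.31, adjusted p = 0.00765) exceeded that of all 10 clock genes. Fbxl21, a ubiquitin ligase subunit that acts on CRY proteins, rose by 1.03 (SE 0.26, adjusted p = 0.00757), and Timeless, which in mammals serves mainly in DNA replication, fell by 0.59 on the log2 scale (SE 0.15, adjusted p = 0.0073). The level of Fbxl21 was low, with means of 1.27 CPM in LRG1 mice and 0.63 CPM in eGFP mice. Cry2, the close relative of Cry1, was at 37.5 to 48.6 CPM in LRG1 mice against 25.9 to 32.1 CPM in eGFP mice, with a log2 fold change of 0.54 (SE 0.20, adjusted p = 0.0499) that did not pass. Npas2, which can stand in for Clock, was at -0.60 (SE 0.32, adjusted p = 0.166), Nfil3, which represses at D-boxes, at -0.17 (SE 0.21), Bhlhe41, a repressor at E-boxes, at -0.44 (SE 0.18, adjusted p = 0.07), and Ciart, a repressor of the ARNTL and CLOCK pair, at 0.54 (SE 0.39).

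Other lists of genes that move with time of day or with handling were read in the same way. Of 12 clock-controlled output genes none was called higher and 2 were called lower at week 7, Noct (log2 fold change -0.98, SE 0.17, adjusted p = 0.000666), a deadenylase-like protein with a strong daily rhythm in mouse liver, and Rgs16 (-2.01, SE 0.30, adjusted p = 0.000169), a regulator of G protein signalling. The list's median was -0.02. Of 11 genes induced by glucocorticoids, hormones that themselves follow the day, 2 were called higher, Klf9 (0.61, SE 0.11, adjusted p = 0.000616) and Cdkn1a (0.43, SE 0.10, adjusted p = 0.00583), and none lower, with a median of 0.39. Klf9 was at 206, 193, 231 and 193 CPM in LRG1 mice, against 121, 136, 132 and 149 CPM in eGFP mice. Of 12 immediate early genes, which respond within minutes to stress or handling, 4 were called lower (Fos, Junb, Egr2 and Atf3), none higher, and the median was -0.49. The 3 with the smallest adjusted p were Fos (-1.37, SE 0.26, adjusted p = 0.00102), Junb (-0.78, SE 0.19, adjusted p = 0.00564) and Egr2 (-1.58, SE 0.39, adjusted p = 0.00581). The share of all genes called at week 7 was 7.37% higher and 10.7% lower. The mix of cells also differed between these groups, as given above, and its part in the values of these lists was not tested.

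At week 10, where 3.66% of all genes were called higher and 5.24% lower, 1 loop gene, 2 output genes, 1 glucocorticoid gene and 2 immediate early genes were called. In the loop list Bhlhe41 alone passed, as lower, at 10.5 to 13.3 CPM in LRG1 mice against 13.5 to 27.4 CPM in eGFP mice (log2 fold change -0.73, SE 0.18, adjusted p = 0.00934). Hlf was at 13.2, 11.9, 14.9 and 13.9 CPM in LRG1 mice, against 4.80, 14.6, 4.06 and 11.9 CPM in eGFP mice, the same high values in eGFP replicates 2 and 4 as for Tef, and its log2 fold change of 0.60 (SE 0.30, adjusted p = 0.158) did not pass. Of the output genes Marveld1 (0.42, SE 0.09, adjusted p = 0.00506) was called higher and Wee1, a kinase that holds the cell cycle, lower (-0.58, SE 0.14, adjusted p = 0.00953). Of the glucocorticoid list Cdkn1a (0.44, SE 0.10, adjusted p = 0.00847) was called higher, and of the immediate early list Atf3 (-2.23, SE 0.41, adjusted p = 0.00263) and Egr2 (-1.66, SE 0.39, adjusted p = 0.00809) were called lower. Atf3 was at 14.3, 23.4, 16.5 and 15.1 CPM in LRG1 mice, against 128, 29.7, 135 and 32.5 CPM in eGFP mice, and Egr2 at 4.96, 9.99, 5.45 and 4.74 CPM against 29.1, 8.49, 33.3 and 8.50 CPM, so that the groups overlapped for Egr2. In eGFP mice of week 10 both genes, like Bhlhe41 (27.4, 14.2, 21.8 and 13.5 CPM) and Wee1 (25.1, 16.4, 25.9 and 18.95 CPM), were highest in replicates 1 and 3, the mice with the high macrophage markers, whose part in these calls was not tested. Between weeks in eGFP mice, where 0.629% of all genes were called higher and 1.51% lower, Timeless (-0.77, SE 0.15, adjusted p = 0.00645), Rgs16 (-1.43, SE 0.29, adjusted p = 0.00839) and Nr4a2 (-1.29, SE 0.26, adjusted p = 0.00694) were called lower at week 10. No gene of the 4 lists was called between weeks in LRG1 mice or for the difference of the LRG1 effects.

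How the clock genes moved together from mouse to mouse was measured on deviations of log2 CPM from the mean of each group, so that the group contrasts do not enter. Of the 45 pairs, 37 had a positive Pearson correlation and 8 a negative one over the 16 mice, and 7 of the negative ones were with Arntl (the other was Clock with Nr1d2). Several of the negative values of Arntl changed sign without the uneven eGFP mice of week 10, an exclusion chosen after seeing the data. The change was not tested. Without those 4 mice the r of Arntl was 0.376 with Per1, 0.392 with Per2, 0.399 with Nr1d1 and 0.114 with Tef. It was near 0 with Dbp (0.0147) and Nr1d2 (-0.013) and -0.278 with Per3, and no pair of Arntl passed. Within week 7 only Per3 of these 7 genes had a negative correlation with Arntl, and within week 10 all 7 did (-0.805 to -0.303). A single pair passed an adjusted p of 0.05 over the 45 pairs, Dbp with Nr1d2. Its Pearson r was 0.862 (n = 16, permutation p = 0.00054, adjusted p = 0.0243) and its Spearman rho 0.868 (permutation p = 0.00055, adjusted p = 0.0247). It was 0.789 without the 2 mice farthest from the median of Dbp, 0.97 within week 7 and 0.764 within week 10 (n = 8 each).

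**Figure D4:**
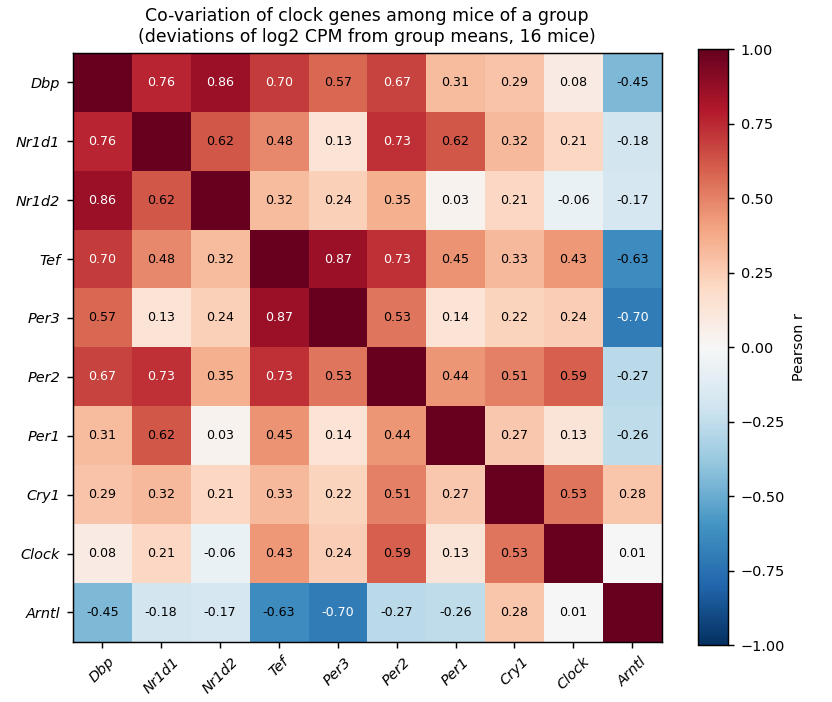
Pearson correlation between each pair of the 10 clock genes over 16 mice, from deviations of log2 CPM from the group means (red positive, blue negative, scale from -1 to 1). Dbp, Nr1d1, Nr1d2, Tef, Per3 and Per2 are positively correlated with each other, from 0.13 to 0.87. The row of Arntl is negative for Per1, Per2, Per3, Dbp, Tef, Nr1d1 and Nr1d2. Of these, 5 (all but Per3 and Nr1d2) are above 0 without the 4 eGFP mice of week 10, Dbp by only 0.0147.

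Per3 and Tef had the highest Pearson r of all pairs, 0.867, but an adjusted p of 0.0686 (permutation p = 0.0061), and their Spearman rho of 0.891 passed (adjusted permutation p = 0.0332). By Spearman 5 pairs passed, the others being Dbp with Nr1d2, Dbp with Tef, Per2 with Nr1d1, and Clock with Cry1. Dbp with Nr1d1 (r = 0.761) and Per2 with Nr1d1 (r = 0.732) each had an adjusted permutation p of 0.0588 by Pearson. The most negative pair was Arntl with Per3 (r = -0.696, rho = -0.676, n = 16, permutation p = 0.0649 and 0.0686, adjusted p = 0.225 and 0.257), and no negative pair passed. For that pair r was -0.325 within week 7 and -0.805 within week 10, and -0.512 without the 2 mice farthest from the median of Arntl.

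The 4 eGFP mice of week 10 weigh in these correlations. Without them, the correlation of Dbp with Nr1d2 was 0.972 over 12 mice (permutation p = 9e-05, adjusted p = 0.00405), and that of Per3 with Tef was 0.717 (permutation p = 0.0344, adjusted p = 0.309). With 1 library left out at a time, 0 to 6 pairs passed, and Dbp with Nr1d2 was lost without eGFP replicate 1 or 4 of week 7, LRG1 replicate 4 of week 7 or eGFP replicate 2 of week 10. With the library total as the only scaling, 12 pairs passed, all positive, among them Dbp with Nr1d2.

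Across the genome, the genes most like Dbp in this mouse-to-mouse variation included a pair from the clock. Over 14175 other genes at a mean of 1 CPM or more, the correlation with Dbp was highest for Ciart (0.910), followed by Nr1d2 (0.862) and Zfp771 (0.856), and Polr2d (0.8293) was also among the 5 highest. Nr1d1 ranked 33 (0.761), Hlf 95 (0.710), Tef 133 (0.697) and Per2 197 (0.674). The lowest were Mov10 (-0.878), Zfp709 (-0.852), Herc4 (-0.849), Ms4a2 (-0.831) and Smim13 (-0.823). These values are correlations over the same 16 libraries chosen as the extremes of many genes, and they share depth and cell mix, so they are given as a description.

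The genes most like Arntl did not include a member of the clock loop lists. They were Csnk1g3 (0.962), Sfn (0.957), Stx3 (0.921), Tent4b (0.911) and Fbxo33 (0.904), and the lowest were Yif1a (-0.925), Cluap1 (-0.911), Fundc2 (-0.909), Rnd3 (-0.908) and Rad51d (-0.903). Nfil3 (0.789) and Npas2 (0.756), which in mouse tissues peak at a similar hour to Arntl, ranked 162 and 288 from the highest, and Hlf (-0.730) and Per3 (-0.696) ranked 593 and 919 from the lowest. Clock itself had a correlation of 0.01 with Arntl. At week 7 Npas2 was at 3.07, 2.16, 3.23 and 1.88 CPM in LRG1 mice, against 5.29, 3.45, 3.83 and 3.16 CPM in eGFP mice, and at week 10 at 2.11, 2.31, 1.47 and 1.37 CPM against 3.39, 1.54, 3.23 and 1.03 CPM. In the eGFP mice of week 10, replicates 2 and 4 were the lower pair for Npas2, as they were for Arntl, and for Nfil3, with 5.76 and 7.13 CPM against 12.2 and 11.6 CPM in replicates 1 and 3.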

How the data were processed

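The deposited counts per gene were made by the authors, who trimmed reads with Cutadapt, aligned them to mm10 (GRCm38) with STAR and counted them with featureCounts, without normalization. Versions, strand and multi-mapping settings are not given in the sources used here. The deposited table also holds the length of each gene, used only for levels per kilobase, and a symbol was matched to 55394 of 55573 genes.

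The main test was the quasi-likelihood F test of edgeR 4.0.16 (R 4.3.3), fitted to the 16 libraries together with 1 coefficient for each group, TMM scaling and the filterByExpr filter. A gene was called where its p-value, adjusted by Benjamini-Hochberg over the 20822 genes tested, was below 0.01. Each SE was computed as the absolute log2 fold change divided by the square root of the F statistic. Library totals were 45376227 to 67539937 counts. The steps were tested on simulated data. Groups and replicate numbers came from sample titles, which do not say that a number marks a litter or batch. Correlations used log2 CPM with a prior count of 2, less the group mean, and 100000 two-sided shuffles within groups, adjusted over 45 pairs. No libraries of a group were duplicates (correlation of log counts 0.947 to 0.990).

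The 10 genes, the lists and the tests were chosen with earlier results of these data known. Named are the 10 genes and Lrg1, up to 3 called genes of each list with the smallest adjusted p in each comparison, relatives of the 10 genes (Npas2, Cry2, Nfil3, Hlf, Ciart and Bhlhe41), and the 5 genes most and the 5 least correlated with Dbp and with Arntl; 2 genes that this rule takes in are not reported here. Atf3 at week 7, Cidec and Slc2a4 were named after their values were seen.

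Alternative settings were DESeq2 1.42.0 and limma-voom (limma 3.58.1) as the test, a fit limited to the 8 libraries of a comparison, RLE, upper quartile or no scaling factors beyond library size, no filter or a filter of 1 CPM in 4 libraries, the replicate number as a block, an adjusted p below 0.05, a prior count of 0.5, and leaving out each library in turn. Leaving out all 4 eGFP libraries of week 10 from the correlations was chosen after seeing the data.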

Additional observations from a re-analysis of the deposited data

Results flagged for a closer look

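Per3 in LRG1 replicate 2 of week 7 was at 27.8 CPM, away from the other 3 mice of its group, which were at 20.8 to 21.9 CPM. The gap to the nearest mouse was 0.841 of the range of the group, above Dixon's 95% critical value for 4 samples. This was 1 of 40 sets of a gene and a group, and chance flags about 1 in 20 groups. Without this mouse the log2 fold change of Per3 at week 7 was 0.68 (SE 0.22, adjusted p = 0.0363, edgeR).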

How the results depend on the processing

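Of the clock genes, 3 were called at week 7, 1 at week 10, 0 for the difference of the LRG1 effects, 1 between weeks in eGFP mice and 0 between weeks in LRG1 mice. With library size as the only scaling these calls at week 7, at week 10 and between weeks in eGFP mice were 0, 0 and 0, and 12 pairs co-varied instead of 1. In fits of only the 8 libraries compared, the calls at week 10 and between weeks in eGFP mice were 0 and 0. DESeq2 called 2 between weeks in eGFP mice (Per2 and Nr1d2), as did a threshold of 0.05 (2). Leaving out 1 library gave 1 to 2 calls at week 7, 0 to 1 at week 10, 0 to 1 between weeks in eGFP mice, 0 in the other comparisons, and 0 to 6 co-varying pairs; the libraries are named beside each result. No result of the 10 genes that was called changed direction under any alternative run, and the cause of the lost calls was not tested. The replicate number as a block gave 3 calls at week 7 (Clock, Per3 and Tef, with Per2 at an adjusted p of 0.0168), 1 at week 10, 0 for the difference, 1 between weeks in eGFP mice and 0 in LRG1 mice. The numbers share only a name: deviations of the 24 same-numbered pairs had a median correlation of 0.01 (-0.319 to 0.307), and 3 of 16 libraries correlated best with their own number. Per3 at week 7 passed under DESeq2, 8 libraries, upper quartile scaling, no filter, the filter of 1 CPM in 4 libraries and the block. Over all genes, 1534 were called higher and 2221 lower at week 7, against 341 and 3636 with library size alone. At week 10 the calls were 762 and 1092, against 320 and 1136, and between weeks in eGFP mice 131 and 315, against 91 and 476. That scaling moved the median log2 fold change of all genes to -0.15, -0.02 and -0.12 in these comparisons and to 0.14 for the difference. Counts of all genes called moved by over 1.5 times in other fits too: at week 10, 3565 with DESeq2 and 12 in the fit of 8 libraries against 1854 in the fit of all 16. The shares of all genes called also depend on single libraries: with 1 left out, the count at week 10 ran from 284 (without LRG1 replicate 4) to 3647 (without eGFP replicate 2), and at week 7 it fell to as few as 2239 (without LRG1 replicate 3), against 3755. The genes of the other lists were not refitted under these alternatives. Depth limits none of the 10 genes, whose counts were at least 227, and with 4 mice a group the spread between mice sets the error.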
